A study of Homo sapiens with 4 samples.

Results

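Mismatch repair genes and MGMT were followed in DLD-1 and HT-29, a pair of human colorectal cancer cell lines, with and without the demethylating nucleoside 5-aza-2'-deoxycytidine. The genes were MSH3, MSH6, MLH3, PMS1, PMS2 and MGMT, taken as the spots whose platform gene symbol was one of these names. They had 7 probes among 29640 that were not controls, 1 for each gene and 2 for PMS2. Treated DLD-1 and treated HT-29 had 24 h of growth followed by 96 h with the drug at 1 µM. RNA of untreated DLD-1 or untreated HT-29 was hybridised on the same array. Each line had 2 arrays, and the dyes were exchanged on array 2. The labels do not say whether the RNAs on the arrays of a line came from separate cultures. A line is therefore counted as 1 replicate, its values are given for both arrays, and the number of arrays limits their precision.

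Mismatch repair corrects base mispairs and small loops left by DNA replication. MutS-type proteins find the lesion: MSH6 forms part of the complex that reads mispairs and short loops, and MSH3 part of the one that reads larger loops. PMS2, PMS1 and MLH3 belong to the MutL type that acts next. MGMT is not a mismatch repair protein; it removes alkyl groups from guanine in a single-use reaction, and its promoter is often methylated in colorectal tumours. DLD-1 is known as a mismatch-repair-deficient line that lacks functional MSH6, and HT-29 as a proficient one.

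Since the drug is a demethylating nucleoside, the starts of the 3 genes to which the comparisons below return are shown first. They are RefSeq sequences of GRCh38.p14, from 250 bases before to 50 bases after the annotated gene start, on the gene's strand and with each CG in capitals. The window of MSH6 (chr2:47782895-47783194, plus strand) held 39 CG pairs, that of MLH3 (chr14:75051418-75051717, minus strand) 22, and that of MGMT (chr10:129466991-129467290, plus strand) 45.
MSH6: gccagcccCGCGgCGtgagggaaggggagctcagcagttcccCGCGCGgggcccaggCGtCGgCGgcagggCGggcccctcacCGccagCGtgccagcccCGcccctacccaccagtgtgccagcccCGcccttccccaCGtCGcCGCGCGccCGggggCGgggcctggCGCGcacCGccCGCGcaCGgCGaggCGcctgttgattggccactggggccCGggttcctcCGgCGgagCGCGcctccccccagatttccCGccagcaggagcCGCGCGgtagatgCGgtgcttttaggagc
MLH3: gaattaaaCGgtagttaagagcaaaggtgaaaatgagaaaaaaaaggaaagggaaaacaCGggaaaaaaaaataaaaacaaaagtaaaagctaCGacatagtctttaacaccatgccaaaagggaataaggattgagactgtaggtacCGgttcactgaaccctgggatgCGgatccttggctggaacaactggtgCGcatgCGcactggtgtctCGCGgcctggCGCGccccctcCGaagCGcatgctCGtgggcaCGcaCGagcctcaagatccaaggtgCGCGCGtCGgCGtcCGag
MGMT: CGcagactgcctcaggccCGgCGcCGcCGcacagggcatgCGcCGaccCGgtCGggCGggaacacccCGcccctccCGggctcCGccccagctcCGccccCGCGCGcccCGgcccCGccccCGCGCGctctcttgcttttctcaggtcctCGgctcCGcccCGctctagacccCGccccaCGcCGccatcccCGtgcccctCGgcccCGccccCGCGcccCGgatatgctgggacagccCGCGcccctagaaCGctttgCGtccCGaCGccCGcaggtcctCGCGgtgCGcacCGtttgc
All 6 genes matched such a window. Among 35116 RefSeq windows of 300 bases, the median was 14 CG pairs, and 96.0% held at least 1. Only 3.48% of windows held as many as MGMT, 8.71% as many as MSH6 and 37.7% as many as MLH3, while MSH3, PMS1 and PMS2 had 37, 40 and 24. The GC box GGGCGG, searched on both strands, occurred 8 times in the MGMT window, 5 times in that of MSH6 and in neither orientation in that of MLH3, and 45.0% of windows held it. Methylation of these windows was not measured on the arrays.

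A few facts of the arrays bear on every value. Channel 2 was read as treated on all 4 arrays, which goes against the labels on array 2 of each line. The file columns name no dye, so the files themselves do not settle which channel held treated RNA there. The labels' channel order was run as an alternative. Signs of array 2 ratios, and the treated or untreated name of array 2 levels, all turn with the channel reading. A channel was taken as above background if its net signal was over 2 SD of the local background, which 68.2% to 85.8% of probes did in a channel. Of 96 negative-control oligo spots, 4.17% to 9.38% passed the same limit. Genes of intestinal epithelium were above background in all 4 channels for 9 of 12 in DLD-1 and 10 of 12 in HT-29. Blood cell markers passed for 4 of 4 and 2 of 4 genes and fibroblast markers for 5 and 5 of 7 in the same order, in lines that hold neither cell type, so a signal above background was not read as proof of a transcript. Ratios correlated across 18868 probes (no replicates of each other) with r = −0.45 between the DLD-1 arrays and 0.00 between the HT-29 arrays. With the dyes exchanged, the negative value leaves the direction of the array 2 ratios unsettled. The labels' channel order names the other channel as treated on array 2, so the main reading departs from it. In the labels' order r was 0.45 between the DLD-1 arrays and −0.001 between the HT-29 arrays. Across the lines r was 0.51 between the arrays numbered 1 and −0.20 between those numbered 2, in either reading. Ratios on array 1 were thus more alike across lines than ratios within a line.

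MSH6 was the 1 member with no signal above background in DLD-1, in 0 of 4 channels, against 4 of 4 in HT-29. In treated RNA its signal over local background was 0.02 and 1.67 background SD on DLD-1 arrays 1 and 2, against 5.48 and 2.98 on the HT-29 arrays. Untreated RNA gave −0.08 and 1.84 in DLD-1, against 2.20 and 6.72 in HT-29. The authors' deposited marks called this spot valid on 0 of 2 DLD-1 arrays and on 2 of 2 HT-29 arrays. The highest DLD-1 value and the lowest HT-29 value lie close to the limit from either side, and at 3 SD only 2 of the 4 HT-29 channels remained above it. The limit also differed between arrays. The local background SD was 379 (treated) and 382 (untreated) units on DLD-1 array 1, against 99.8 and 190 on HT-29 array 1. On array 2 it was 204 and 184 in DLD-1, against 331 and 251 in HT-29. The HT-29 array 1 signals, 546 and 418 units, would not have passed the limit of DLD-1 array 1. Of all 29591 probes 224 (0.757%) showed this pattern of 0 and 4 channels, a pattern picked out after the values were seen.

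In net intensity, MSH6 had 8.34 and 341 units in treated DLD-1, against 546 and 986 in treated HT-29. Untreated cells had −31.3 and 339 units in DLD-1, against 418 and 1688 in HT-29. On DLD-1 array 1, 41.7% (treated) and 60.4% (untreated) of the negative-control oligos were at least as bright, and on DLD-1 array 2 6.25% and 4.17%. In HT-29 the shares were 0% and 3.13% on array 1 and 7.29% and 3.13% on array 2. On array 2, treated HT-29 thus had the larger share of brighter controls and untreated HT-29 the smaller. In bulk RNA fewer expressing cells and less RNA per cell cannot be told apart.

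**Figure D1:**
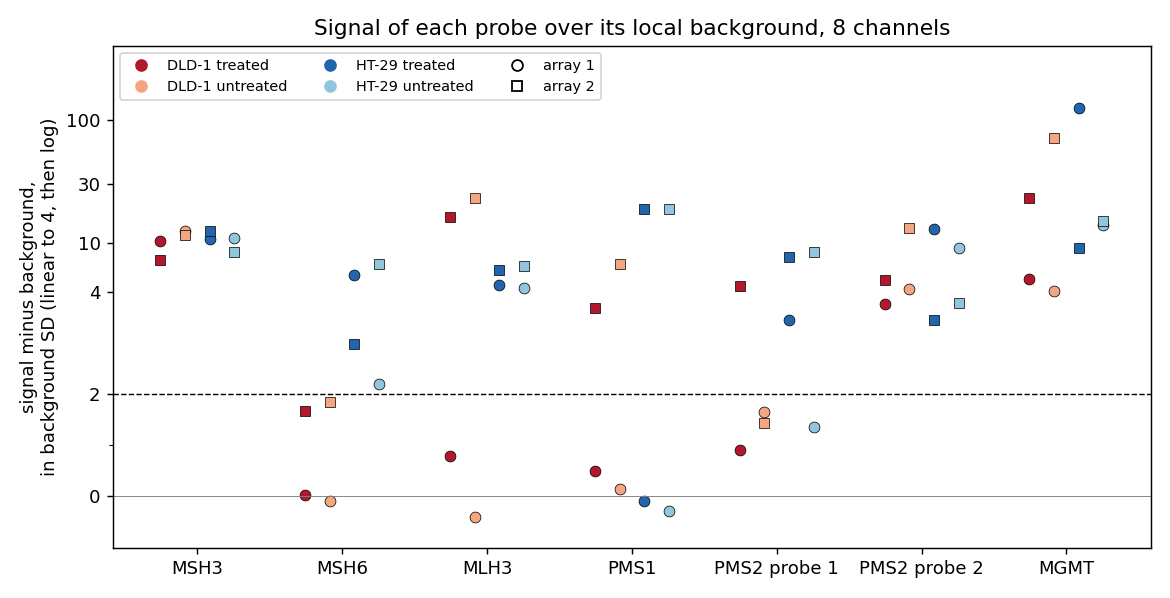
Net signal of each probe in units of its local background SD (vertical axis, linear up to 4 and logarithmic above), for treated and untreated RNA of DLD-1 and HT-29 on array 1 (circles) and array 2 (squares); the dashed line marks 2 SD. All 4 DLD-1 points of MSH6 lie under the line and all 4 HT-29 points above it, the nearest being 1.84 and 2.20.

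Levels were also set between the lines after normalization of signal across arrays, in log2 units. The untreated MSH6 level was 7.71 and 8.97 on the DLD-1 arrays, against 10.18 and 9.85 in HT-29, and the lines did not overlap (difference −1.67). Because DLD-1 was at background, the size of this difference is uncertain. With each DLD-1 value raised at least to the dimmest level above background on its array, untreated MSH6 signal was 2.20-fold higher in HT-29. The local background SD of this spot was 382 units on untreated DLD-1 array 1, so a brighter signal could have gone unseen. The 2.20-fold is therefore not a lower bound. It is a mean over both arrays, and the difference was −1.05 without DLD-1 array 1. Treated MSH6 had 7.88 and 9.27 in DLD-1, against 10.20 and 9.02 in HT-29, so there the lines overlapped and DLD-1 was the higher line on array 2. The treated difference was −1.03. It shrank to −0.45 once HT-29 array 1 was left out, and to −0.34 once DLD-1 array 1 was. With both channels of an array averaged, which does not depend on how array 2 is read, the difference was −1.35 with no overlap. In the labels' channel order the non-overlap moved to the treated channel (difference −1.60), and the untreated difference was −1.11.

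MGMT was above background in 8 of 8 channels and brighter in HT-29 than in DLD-1 in each of the 4 channel pairs. Its treated level was 9.82 and 11.20 in DLD-1, against 11.99 and 12.30 in HT-29, which did not overlap (difference −1.64, but −0.94 without DLD-1 array 1). Its untreated level was 9.80 and 11.45 in DLD-1, against 10.64 and 13.16 in HT-29; array 2 of DLD-1 lay above array 1 of HT-29, so these lines overlapped (difference −1.27). Without HT-29 array 2 the untreated difference was −0.01, and without DLD-1 array 1 it was −0.45. The labels' channel order gave −1.94 in treated and −0.97 in untreated cells. Over the 4 pairs of like channel and array number, MGMT signal averaged 2.74-fold higher in HT-29, a mean that does not depend on the reading of array 2. With both channels of each array averaged, the lines overlapped for MGMT. In net intensity, treated DLD-1 had 671 and 2029 units, against 2359 and 5403 in treated HT-29. On DLD-1 array 1, 7.29% of the negative-control oligos were at least as bright as MGMT in each channel, and 0% on the other arrays.

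The members' shares of such differences were near those of all probes. At least 2-fold and without overlap, 1 of 6 member probes that could be compared differed in the treated channel, MGMT, where 16.3% of all probes did. In the untreated channel 1 of 5 differed, MSH6, where the share of all probes was 21.3%. MSH6 entered that count through HT-29 alone, so nothing is read from it. For 1 sign in 4 of 4 channel pairs with a mean of at least 2-fold, a rule added after the values were seen, the count was 1 of 5, MGMT, against 18.7% of all probes. With 1 replicate a line, the lines were not tested against each other.

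MSH3, the partner protein for larger loops, was above background in 8 of 8 channels, at 7.30 to 12.4 background SD in DLD-1 and 8.34 to 12.4 in HT-29. Its treated level was 11.62 and 10.27 in DLD-1, against 11.21 and 12.17 in HT-29. Its untreated level was 11.56 and 10.45 in DLD-1, against 11.29 and 11.78 in HT-29. The lines overlapped in both channels: on array 1 DLD-1 was the higher line, on array 2 HT-29 was.

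PMS2, the main MutL partner in mismatch repair, had 2 probes that disagreed. Probe 2 was above background in 8 of 8 channels, with treated levels of 10.39 and 9.88 in DLD-1, against 10.78 and 9.56 in HT-29. Probe 1 was above background in 1 of 4 DLD-1 channels and 3 of 4 HT-29 channels. The human genome holds many PMS2-like copies, and either PMS2 probe may also bind their transcripts. The platform names 3 probes for the copies PMS2P2 and PMS2P3, and that of PMS2P3 was above background in 4 of 4 DLD-1 and 4 of 4 HT-29 channels. PMS2 values are thus uncertain.

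PMS1, a MutL homologue with an undefined part in repair, was above background on array 2 of each line and on neither array 1. Its treated level was 8.70 and 10.03 in DLD-1, against 7.41 and 11.27 in HT-29, so the HT-29 arrays lay on both sides of the DLD-1 arrays. MLH3, which in meiosis works in crossing over, was above background in 2 of 4 DLD-1 channels, both on array 2, and in 4 of 4 HT-29 channels. Its treated level was 8.47 and 10.90 in DLD-1, against 8.72 and 10.62 in HT-29. Its untreated level was 7.68 and 9.84 in DLD-1, against 9.74 and 11.20 in HT-29, and the lines overlapped. No fold is drawn from these levels, since DLD-1 array 1 was at background in both channels.

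**Figure D2:**
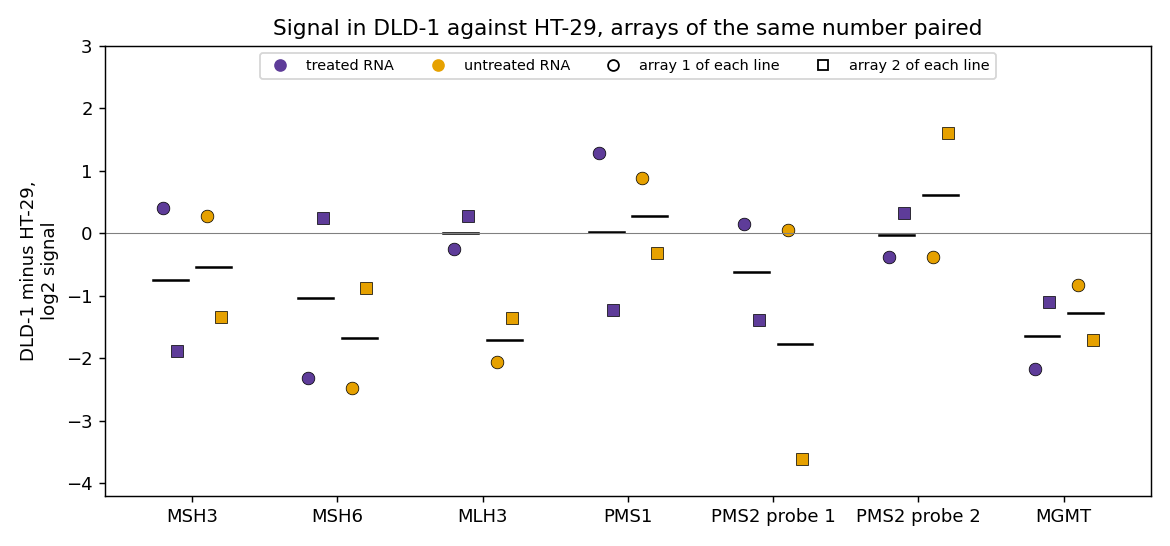
DLD-1 minus HT-29 log2 signal of each probe (vertical axis) in treated and untreated RNA, with array 1 of one line set against array 1 of the other (circles) and likewise array 2 (squares); the bars are means of both pairs. MGMT lies under 0 in all 4 pairs, and every other probe lies on both sides of 0, MSH6 and MLH3 with 3 pairs under it and 1 above.

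The drug left no member called in either line or over both. The log2 ratios of treated over untreated MSH3 were 0.06 and −0.17 in DLD-1 and −0.08 and 0.38 in HT-29, so treated and untreated cells differed by less than the spread between arrays. PMS2 probe 2 had −0.09 and −0.58 in DLD-1 and −0.08 and 0.70 in HT-29. MGMT had 0.01 and −0.25 in DLD-1, with treated levels 0.922-fold the untreated ones. In HT-29 the MGMT ratio was 1.35 on array 1 and −0.86 on array 2, a mean of 0.25 ± 1.56 (SD of the 2 arrays). The dye orientations thus gave opposite signs; in the labels' channel order both are positive, with a mean of 1.11, and the array 2 ratio is under 2-fold.

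MSH6 gave 0.17 and 0.30 in DLD-1, a ratio between signals at background, and 0.01 and −0.82 in HT-29. Signal that was missing in untreated DLD-1 was also missing in treated DLD-1, so no switching on of MSH6 was detectable in these arrays. PMS1 had 0.29 and −0.13 in DLD-1 and −0.12 and 0.79 in HT-29. PMS2 probe 1 had −0.36 and 1.63 in DLD-1 and −0.47 and −0.59 in HT-29. Its DLD-1 values are not measured ratios, since the untreated channel of array 2 and both channels of array 1 were at background. In the labels' channel order the mean of a line changed sign for 6 of 7 probes in DLD-1 (not PMS1) and for 5 of 7 in HT-29 (not MLH3 or MGMT).

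MLH3 had 1 sign in each line and opposite signs between them. The ratios were 0.79 and 1.06 in DLD-1 (mean 0.92 ± 0.19) and −1.02 and −0.58 in HT-29 (mean −0.80 ± 0.31). Both DLD-1 array 1 channels were at background, so the DLD-1 value rests on array 2, where the signal was 16.3 background SD in treated and 23.1 in untreated cells. In the labels' channel order the signs within each line part, and the means become −0.13 and −0.22. Among probes measured on all 4 arrays, which leaves out MLH3, 7.41% had 1 sign in each line and opposite signs between them, and 12% in the labels' channel order.

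**Figure D3:**
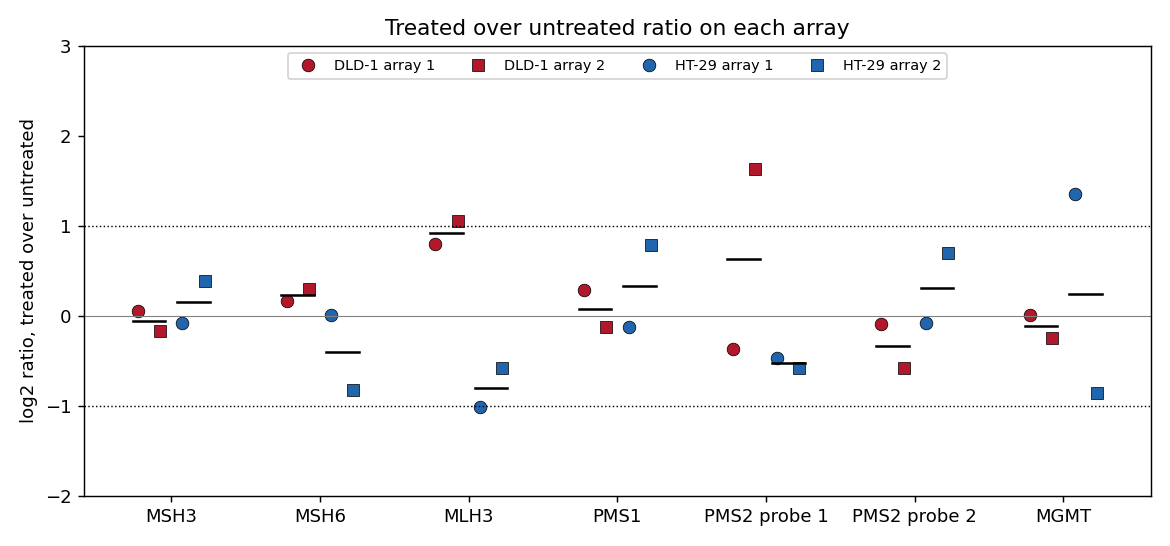
Log2 ratio of treated over untreated RNA (vertical axis) of each probe on the 4 arrays; bars are the means of a line and dotted lines mark 2-fold. MLH3 lies above 0 on both DLD-1 arrays and under 0 on both HT-29 arrays, and MGMT reaches 1.35 and −0.86 on the 2 HT-29 arrays.

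At least 2-fold in 1 direction on both arrays of a line, 0 of 3 measured member probes were called in DLD-1, where 0.123% of all probes were, and 0 of 6 in HT-29, where the share was 0.128%. A difference of response of at least 2-fold between the lines without overlap was found for 0 of 3 member probes measured on all arrays, against 1.75% of all probes. Over both lines, 3 member genes could be tested by limma on the 2 line means, and 0 passed, where 20 of 8470 genes (0.236%) did and 423 had an unadjusted p under 0.05. The mean log2 ratio was 0.05 for MSH3, −0.01 for PMS2 and 0.06 for MGMT, with a limma adjusted p between 0.996 and 0.998. The limma SE was 0.217 for all 3, a value pooled over genes that does not reflect the spread of any 1 gene. In the labels' channel order the MGMT mean was 0.62 (limma adjusted p 0.252). The smallest p that an exact permutation of signs allows over 2 lines is 0.5. With no filter on signal, 0 of 6 member genes passed.

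Genes of other repair steps were tested in the same limma fit, and 0 passed. Of 13 measured genes of excision and resynthesis, the steps that remove and refill the mispaired strand, 0 rose and 0 fell; the list median was −0.03, against 0.01 over all genes. RFC4 (−0.50) of the clamp loader and PCNA (−0.43), the sliding clamp, were lowest, and RPA2 (0.32) and RPA1 (0.27), which coat single strands, were highest. In the labels' channel order RFC4 was at 0.02 and PCNA at 0.11, and the lowest was RFC1 (−0.27), another clamp loader subunit, while RPA2 remained highest (0.54). Of 14 measured base excision repair genes 0 passed, with a median of 0.01. Its highest were MBD4 (0.49), a glycosylase for mispairs at methylated CG sites, and UNG (0.38), which removes uracil. MUTYH (−0.21) and NEIL3 (−0.20), both glycosylases, were lowest. Read the labels' way, MBD4 was at 0.03 and MUTYH at −0.01; UNG was at 0.57 and NEIL3 at −0.30. Adjusted p was 0.733 for RFC4 and 0.758 for MBD4 in the limma fit, and 0 of these list genes passed it in the labels' channel order.

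The alkylation repair list had 3 measured genes besides MGMT, ASCC1 (−0.37), ASCC3 (−0.05) and FTO (−0.01), and 0 passed. MSH5 (0.26) and MSH4 (0.14), meiotic MutS homologues, and EPM2AIP1 (0.03) did not pass either. The signs of MSH5 and MSH4 turned in the labels' channel order (−0.15 and −0.10). In all 33 genes of these lists were tested.

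**Figure D4:**
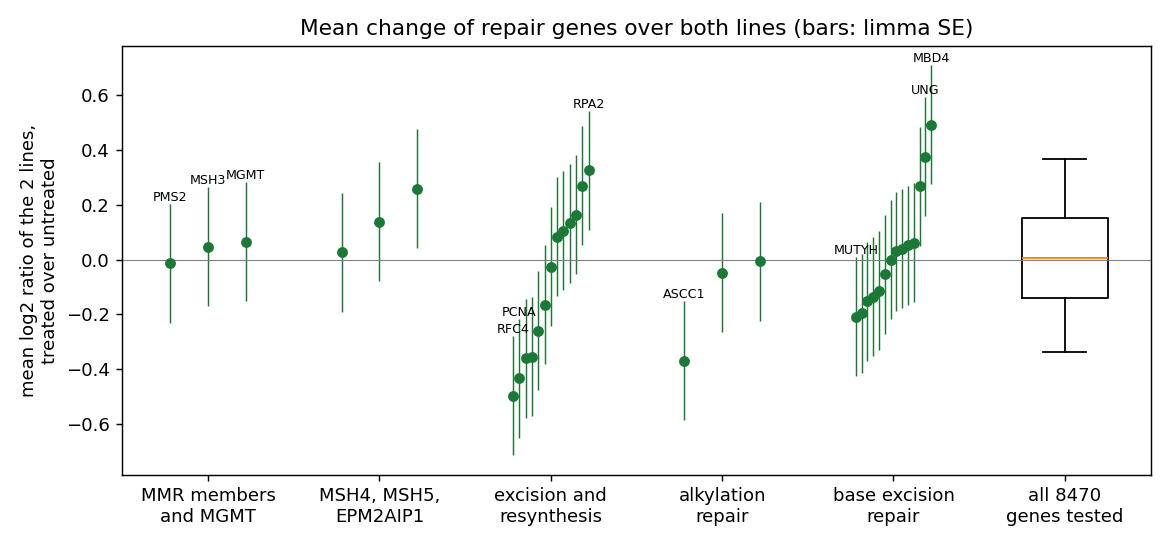
Mean log2 ratio of treated over untreated RNA over both lines (vertical axis) for each tested gene of the repair lists. The bars are the limma standard error, a pooled value that was the same for each of these genes. The box shows all 8470 genes, with the median, the quartiles and whiskers from percentile 5 to 95. MSH3, PMS2 and MGMT lie between −0.01 and 0.06, inside the box.

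Between the lines, 2 of 17 excision and resynthesis genes differed at least 2-fold without overlap in treated cells, PCNA and RFC5, and 2 in untreated cells, RFC5 and LIG1. All 3 were higher in DLD-1. RFC5, a clamp loader subunit, had treated levels of 11.38 and 10.75 in DLD-1, against 6.49 and 9.78 in HT-29, where 2 of 4 channels were above background. Of 15 base excision repair genes, POLB, a repair polymerase, and PARP1, a sensor of strand breaks, were higher in DLD-1 in treated and untreated cells. APEX2 and FEN1 were higher in DLD-1, and LIG3 lower by 1 of its 2 probes, in untreated cells only by this rule. MSH4 was likewise higher in untreated DLD-1. RFC5 and APEX2 entered through DLD-1 alone, with 2 of 4 HT-29 channels above background, so nothing is read from their calls. PARP1, LIG1 and MSH4 were above background in 3 of 4 HT-29 channels, and the called LIG3 probe in 3 of 4 DLD-1 channels. In the labels' channel order POLB, PARP1 and RFC5 were called in both channels again, PCNA moved to untreated cells, LIG1, APEX2, FEN1 and LIG3 moved to treated cells, and MSH4 was called in neither (0.98 treated, 0.93 untreated). EXO1, POLD1, POLD2 and 1 probe of OGG1 were called in treated cells in that order alone. Over all probes the shares were 16.3% in treated and 21.3% in untreated cells, and 21.6% and 16.5% in the labels' channel order.

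By Pearson's r over the 8 channel levels, the genes most like MSH3 among 6464 were CELSR1, TAMM41 and GRIK1 (r from 0.977 to 0.996), those most like PMS2 were GPC1, VNN1 and SPINK4 (0.988 to 0.993), and those most like MGMT were PRMT8, MAN2B2 and LRP5 (0.971 to 0.977). The 8 levels were counted as 4 RNA preparations and share arrays, so this describes likeness of pattern alone.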

How the data were processed

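Total RNA was amplified, coupled to Cy3 or Cy5 and hybridised to 4 oligonucleotide arrays of 30336 spots, per the labels' protocols. Per the file headers, the deposited files hold for each channel a linear spot intensity with the intensity and SD of its local background. The authors' log2 ratio, deposited in the same files and with reversed sign in the series table, has its median at 0 on each array and was used as an alternative. No source used here names the scanner or its software.

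In R 4.3.3 with limma 3.58.1, intensities were background-corrected by normexp (offset 50) and normalized by loess within each array, with controls and bad spots at weight 0; levels between lines used Aquantile. After 49 probes marked bad were left out, 29591 remained, and 14174 had 1 platform symbol, updated through gene IDs of GRCh38.p14; genes without a platform symbol were not analysed here. A ratio entered where a channel was above background on each array used, and a level where its channel was above background on both arrays of a line. Probes of a gene were averaged. Both dye orientations were averaged to 1 value per line, and limma (lmFit, eBayes) set the 2 line means against 0 across all genes, with Benjamini-Hochberg adjustment. The labels do not say whether the lines' RNAs came from separate cultures, so the p-values concern only these samples. Each gene named here had the same limma SE, 0.217. It reflects a spread of line means pooled over genes, so the p-values do not measure the spread of a single gene. The steps were tested on simulated data with independent noise on each array and no effect of printed position. That test does not cover the correlations between the real arrays. Printed position in 48 blocks accounted for 23.2% to 49.7% of the variance of the ratios.

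The members, gene lists and tests were chosen with earlier results of these data known. The text names all members, list genes that passed or were called, the 2 highest and 2 lowest of each list, and the 3 genes most like a member that was above background in all channels. Alternatives covered the channel reading, background correction, loess, block medians, the signal filter, between-array scaling, the authors' ratios, single probes and each array left out.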

Additional observations from a re-analysis of the deposited data

Results flagged for a closer look

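The response of MLH3 differed by 1.72 on the log2 scale between DLD-1 (0.79 and 1.06) and HT-29 (−1.02 and −0.58), because both arrays of DLD-1 were positive and both of HT-29 negative. The difference was not tested, since each line is 1 replicate. Neither channel of DLD-1 array 1 was above background for MLH3, and in the labels' channel order the pattern is lost.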

How the results depend on the processing

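Single replicates of each line, signal near background and ratios that differ between dye orientations limit the values. By limma over both lines, 0 members passed under any alternative run. Adjusted p ranged from 0.252 to 1.00 for MGMT, and its lowest value was 0.822 for MSH3 and 0.814 for PMS2. The mean log2 ratio changed sign for MSH3 in the labels' channel order (−0.059) and with block medians set to 0 (−0.12). For PMS2 it changed sign with median centring (0.038), with no signal filter (0.020) and with the authors' ratios (0.052). With 1 array left out, means ranged from −0.069 to 0.16 for MSH3, from −0.21 to 0.21 for PMS2 and from −0.49 (without HT-29 array 1) to 0.62 (without HT-29 array 2) for MGMT.

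Calls between untreated lines fell to 0 members, against 1 (MSH6), in the labels' channel order, with the authors' background-subtracted signal and at 3 background SD. In treated cells the labels' order gave 2 (MSH6 and MGMT), against 1. At 3 SD, MSH6 was above background in 2 HT-29 channels, against 4. With no signal filter, 2 probes (MLH3 and PMS2 probe 1) differed in response, against 0. Leaving out 1 array gave 0 to 2 calls within DLD-1 (MLH3 and PMS2 probe 1 without array 1), 0 to 2 within HT-29 (MLH3 and MGMT without array 2), 1 to 6 between untreated lines, 2 to 4 between treated lines and 0 to 2 for the response. A line left with 1 array was then judged on that array alone.

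Counts over all features moved by more than 1.5 times for the drug ratios and the response, most of all with 1 array left out. Genes called up over both lines numbered 16, with 2 to 56 under alternatives on all arrays and 8 to 299 with 1 array left out, and genes called down 4, with 0 to 7 and 0 to 128. Within DLD-1, 24 probes were up (19 to 78, and 562 to 625 with 1 array left out) and 2 down (0 to 14, and 353 to 1066). Within HT-29, 26 were up (11 to 69, and 481 to 1100) and 3 down (1 to 31, and 267 to 537). On all arrays, the highest counts up came from the labels' channel order: 56 over both lines, 78 in DLD-1 and 69 in HT-29. For the response, 109 were up (68 to 635, and 228 to 1088) and 221 down (73 to 559, and 138 to 2279). Between the lines, with 1 array left out, 3466 to 5050 probes were lower and 3356 to 4617 higher in treated DLD-1, against 1860 and 1996. In untreated DLD-1 they were 2789 to 6003 and 3925 to 5923, against 2186 and 2736. Under alternatives on all arrays these counts between the lines stayed within 1.5 times. There 1552 to 2407 probes were lower and 1777 to 2907 higher in treated DLD-1, and 1742 to 2761 and 1934 to 3391 in untreated DLD-1. No paired analysis was possible because array numbers mark dye orientations and each line is 1 replicate.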
